A study of Mus musculus with 670 samples.

Results

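Mouse long bones were taken apart mechanically and with enzymes, stained with antibodies, sorted by flow cytometry for skeletal stem cells, and sequenced cell by cell with SmartSeq2, a method that reads full-length transcripts of 1 cell in 1 well. The cells described here carried no read of Cnmd, which encodes chondromodulin, a membrane protein of cartilage. They came from mice at postnatal day 3 (P3) and from mice at 2 months. Cells passed with 1000 or more genes, 50000 or more reads of genes and under 20% of reads from mitochondrial genes, and a passing cell was a member when its count of Cnmd was 0. This gave 26 members at P3 and 42 at 2 months, 68 of the 670 wells of the series. The question is which transcripts differ between the newborn and the 2-month skeleton in sorted cells that hold no transcript of this cartilage gene.

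All wells are labelled male, from long bones, freshly purified, untreated and without culture, and no genotype or strain is given. The P3 cells lay on plate 9 (batch 3). The 2-month cells lay on plate 1 (batch 4, 8 cells), plate 3 (batch 5, 18 cells) and plate 4 (batch 1, 16 cells). No label names an animal, so each age counts as 1 sample and nothing is tested; the spread between the 2-month plates describes plates only. Batch and age cannot be told apart within this comparison.

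The members had a median of 1092724 reads and 2272 genes at P3, against 514000 reads and 1382 genes at 2 months. With every cell thinned to 50000 reads, the medians were 1751.5 genes at P3 and 1030 at 2 months, so that the newborn cells also held more genes at equal depth. Reads of mitochondrial genes made up a median of 0.379% at P3 and 0.945% at 2 months. On plate 1, 2 cells held 92.3% of the reads of its 8 members, and the deepest held 46.2%, so a level on that plate is close to the level of these 2 cells. No index pair occurred on more than 1 plate. SmartSeq2 reads are not counted as single molecules. Cells of an age are not replicates, so the intervals given below cover counting error only.

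Skeletal stem cells sorted from bone can give rise to cartilage, bone and stroma. Fibrous connective tissue around bone, such as periosteum, perichondrium, tendon and ligament, rests on type I and III collagen fibrils, on collagens that coat these fibrils, such as XII and XIV, and on periostin. Bone-forming cells instead secrete a mineral-binding matrix with osteopontin, bone sialoprotein and osteocalcin, and the cells of the joint surface secrete lubricin. In the newborn, many tissues still carry high levels of imprinted genes of fetal growth, which fade as growth slows.

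The value of 0 reads chose the members and is no result. At P3 the choice was clear: the cells with Cnmd reads began at 614 and 934 CPM (reads of the gene scaled to a fixed total per cell or plate), with a median of 5354 CPM. At 2 months it was not: 6 cells with Cnmd reads lay under 10 CPM, from 1.55 to 8.22 CPM, the next lay at 11.5 CPM, and the median was 4315 CPM. Members made up 38.2% of passing cells at P3 (exact 95% binomial interval 26.7% to 50.8%) and 27.3% at 2 months (20.4% to 35.03%). For the limit of 1000 genes, the members nearest to it had 1100 genes at P3 and 1000 at 2 months, and the cells just left out had 686 at P3 and 978 at 2 months.

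Lacking Cnmd was not the same as lacking cartilage transcripts. At P3, 13 of 26 members held at least 1 read of Acan, Col2a1, Col9a1, Comp or Matn3, and at 2 months 30 of 42 did. Col2a1, the main collagen of cartilage, was read in 2 of 26 members at P3 (1227 CPM) and in 22 of 42 at 2 months, with 1032, 13128 and 4823 CPM on plates 1, 3 and 4. At P3, 95.8% of the Col2a1 reads came from 1 cell. The members are therefore called cells without Cnmd reads, not cells without cartilage transcripts.

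Levels were compared as CPM of the summed cells of a plate, with the 2-month level as the mean of its 3 plates. The size rule asked for 10 CPM or more and reads in 20% or more of the cells at the higher age, a difference of 2-fold or more, and a plate 9 value outside the range of the 2-month plates. Of 3104 genes that could meet it, 1222 (39.4%) were higher at P3 and 7.99% were lower. The median log2 fold over all of these genes, with 1 CPM added to each level, was 0.78, so a list near that value does not stand apart from genes in general. Without plate 1, 1216 genes were higher and 569 lower, and without its deepest cell alone 1273 were higher and 5.11% of genes lower.

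The cells of each age fell into different groups of transcripts. At P3, 25 of 26 members held a read of at least 1 of Postn, Aspn and Col14a1, against 6 of 42 at 2 months. A read of Prg4, which encodes lubricin, or of Spp1, which encodes osteopontin, was found in 3 of 26 members at P3 and in 32 of 42 at 2 months. At 2 months these genes were mostly in different cells: 15 held Prg4, 20 held Spp1 and 3 held both. None of the 15 cells with Prg4 held Bglap or Bglap2, and all of the 11 cells with Bglap or Bglap2 held Spp1.

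**Figure D1:**
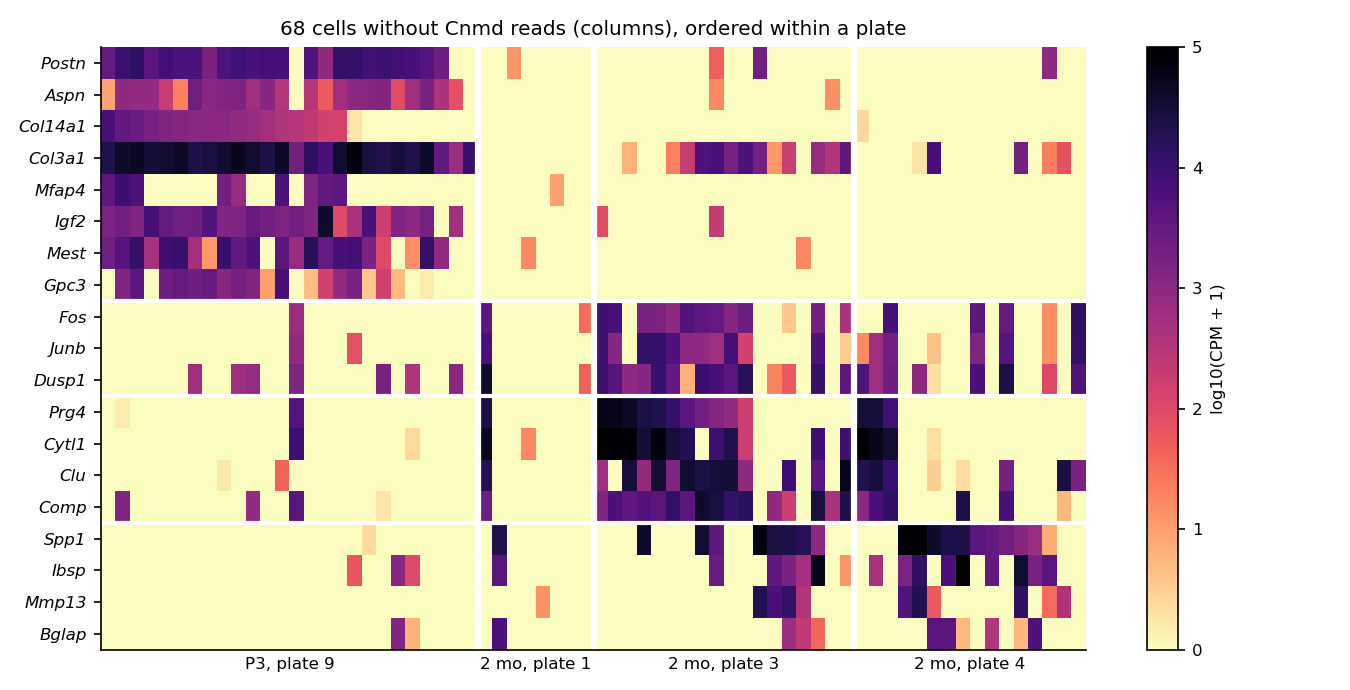
Level of 19 genes in each of the 68 cells without Cnmd reads, as log10 of CPM with 1 added; columns are cells, with the 26 cells of P3 at the left and the 2-month plates 1, 3 and 4 to their right, and cells are ordered within a plate by the genes shown. Postn fills 23 of 26 columns at P3 and 4 of 42 at 2 months, while Prg4 fills 15 and Spp1 20 of the 42 columns at 2 months.

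Genes of fibrous matrix were higher in the newborn cells. Of 25 listed genes, 21 met the size rule as higher at P3 and 0 as lower, with a median log2 fold of 2.90 beside 0.78 for all genes tested. Among all genes tested, 39.4% were higher. Summed, the list held 167704 CPM at P3, against 99134, 34444 and 76346 CPM on plates 1, 3 and 4 at 2 months. The newborn plate was above all 3 plates.

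Postn (chr3:54361109-54391037, GRCm38, plus strand) encodes periostin, a matrix protein of periosteum, tendon and healing tissue. It had 6939 CPM at P3, against 0.130, 79.9 and 16.1 CPM on plates 1, 3 and 4 at 2 months, a log2 fold of 7.71. Reads were found in 23 of 26 cells at P3 (88.5%, 69.8% to 97.6%) and in 4 of 42 at 2 months (9.52%, 2.66% to 22.6%). The newborn plate lay far above every 2-month plate, and 1 cell gave 87.6% of the reads at 2 months. After thinning to 50000 reads the counts were 23 cells at P3 and 3 at 2 months.

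Col14a1 (chr15:55307750-55520803, plus strand) encodes type XIV collagen, which binds the surface of collagen fibrils in dense connective tissue. It had 937 CPM at P3 in 18 of 26 cells (69.2%, 48.2% to 85.7%), and 1 read in 1 of 42 cells at 2 months (2.38%, 0.0603% to 12.6%). At P3, 17 of the 18 cells with Col14a1 also held Postn. Type XIV collagen was thus read in most, but not all, of the cells that held periostin.

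The fibril-forming collagens differed from each other. Col3a1, the collagen of young and repairing connective tissue, had 32664 CPM at P3 in all 26 cells, against 0, 1624 and 945 CPM at 2 months, a log2 fold of 5.25. Col5a1, which starts fibril assembly, had 1807 CPM at P3 against 0, 95.7 and 299 CPM at 2 months. For Col5a2, its partner chain, the values were 3108 CPM at P3 and 1618, 1756 and 1137 CPM at 2 months, a log2 fold of 1.05.

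Col1a1 had 47886 CPM at P3 against 43593, 883 and 22036 CPM at 2 months, a log2 fold of 1.11. It did not meet the rule without plate 3 (which alone was low), without the deepest cell of plate 1 or with TMM factors, which scale plates to a common core of genes. Col1a2, the second chain, had 37090 CPM at P3 against 35687, 2143 and 20099 CPM at 2 months and did not meet it at all, with a log2 fold of 0.94. Both chains of type I collagen thus lay close to the 2-month level of plate 1, where 2 cells held 92.3% of the reads, and far above that of plate 3.

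Col12a1, the other fibril-coating collagen of the list, had 2228 CPM at P3 against 0, 15.8 and 150 CPM at 2 months, with reads in 22 of 26 cells at P3 and in 6 of 42 at 2 months. The 3 chains of type VI collagen, which forms beaded filaments around cells, were all higher at P3. Their log2 folds were 2.12 for Col6a1, 1.55 for Col6a2 and 2.65 for Col6a3. These folds were smaller than those of Col12a1 (5.31) and Col3a1.

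Most elastic fibre genes on the list were also higher. Mfap4 (chr11:61485431-61488900), which encodes a glycoprotein bound to elastin microfibrils, had 1856 CPM at P3 in 9 of 26 cells and 1 read at 2 months. Fbn2, the fibrillin of developing tissue, had 299 CPM at P3 in 13 cells and 0 reads in 42 cells at 2 months, with 7.14% as the share that 3 cells would make. Fbn1, the fibrillin that persists in adults, did not meet the rule, with 681 CPM at P3 against 1263, 149.6 and 98.2 CPM at 2 months. Eln, elastin itself, had 235.6 CPM at P3 against 1.04, 12.6 and 0.662 CPM at 2 months, and Mfap2, Mfap5, Fbln1, Fbln2 and Fbln5 also met the rule as higher.

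Of the cell-contact proteins on the list, Thbs2, thrombospondin 2, had 2416 CPM at P3 against 0, 178.02 and 88.6 CPM at 2 months. Tnc, tenascin C, had 1231 CPM at P3 against 0, 351 and 708 CPM at 2 months. Fn1, fibronectin, did not meet the rule: 1972 CPM at P3 lay between 0.130 CPM on plate 1 and 4692 and 10942 CPM on plates 3 and 4. Sparc, a collagen-binding glycoprotein also abundant in bone, had 12026 CPM at P3 against 15791, 18574 and 16052 CPM at 2 months and did not reach 2-fold. Fibrous genes that did not meet the rule were thus Col1a2, Fn1, Fbn1 and Sparc.

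**Figure D2:**
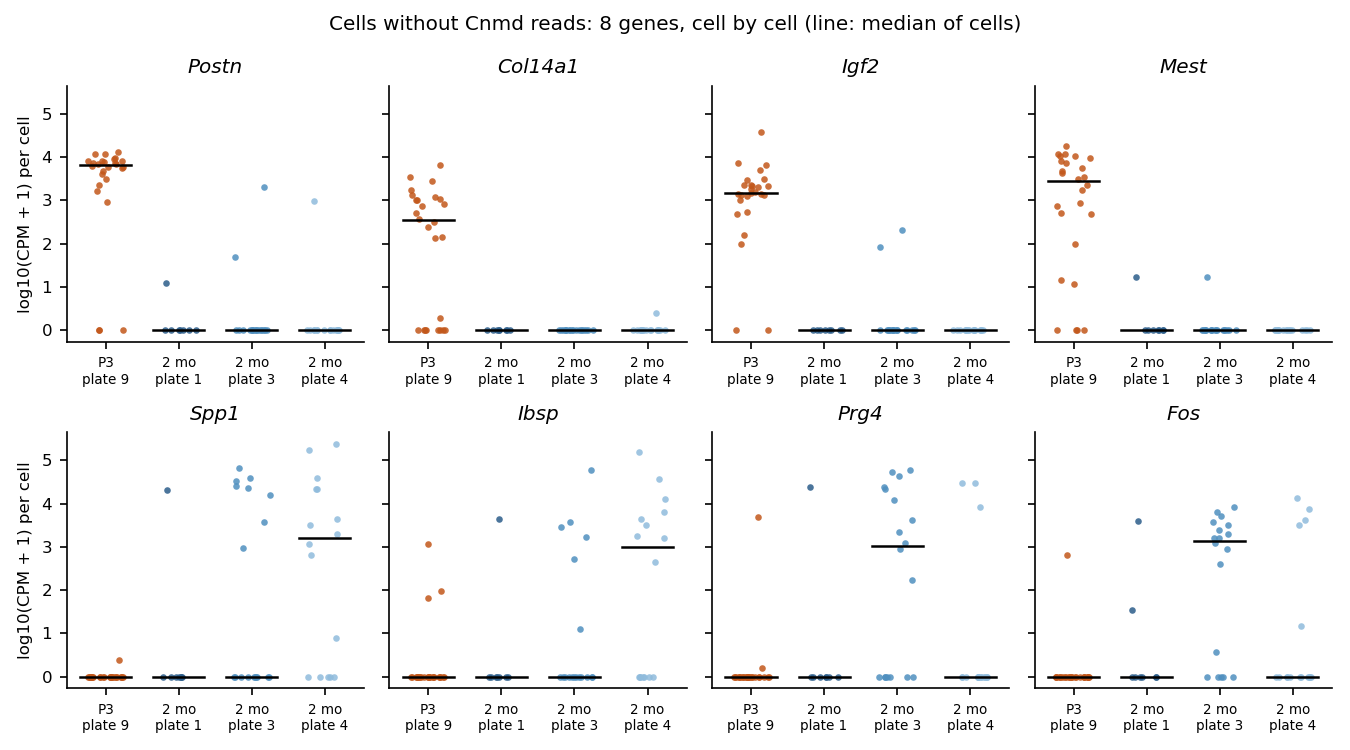
Level of 8 genes in single cells without Cnmd reads, as log10 of CPM with 1 added, for P3 (plate 9, left) and the 2-month plates 1, 3 and 4; each point is a cell and the line is the median of the cells of a plate. Postn, Igf2 and Mest are read in 23, 24 and 22 of 26 cells at P3, and Spp1 in 20 and Fos in 20 of 42 cells at 2 months.

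The small leucine-rich proteoglycans, which regulate the width and spacing of collagen fibrils, did not move together. Of 10 genes, 4 were higher at P3 (Bgn, Aspn, Ogn and Kera) and 0 lower by the rule, and the median log2 fold was 1.16. Of the 10, 8 were among the genes tested. Over all genes tested, 39.4% were higher and the median was 0.78. Aspn (chr13:49544443-49567565), which encodes asporin, had 844 CPM at P3 in 24 of 26 cells (92.3%, 74.9% to 99.1%) and 3 reads in 2 of 42 cells at 2 months (4.76%, 0.582% to 16.2%). Asporin and periostin marked nearly the same newborn cells: all 23 cells with Postn held Aspn.

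Bgn, biglycan, had 4509 CPM at P3 against 723, 1524 and 1945 CPM at 2 months, a log2 fold of 1.69. Kera, keratocan, had 903 CPM at P3 in only 6 cells, against 0, 1.28 and 0 CPM at 2 months. Dcn, decorin, ran the other way without meeting the rule, with 2477 CPM at P3 against 1998, 13462 and 2132 CPM at 2 months. Fmod, fibromodulin, and Prelp also had higher means at 2 months, with log2 folds of -0.31 and -1.59. Thus the newborn cells were not higher for this family as a whole.

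Enzymes that modify and cross-link collagen showed a smaller difference. Of 18 measured genes, 7 were higher at P3 and 0 lower, but the median log2 fold of 0.74 lay beside that of all genes tested. The count does not stand apart either, as 39.4% of all genes tested were higher. P4hb, a subunit of prolyl 4-hydroxylase, had 3257 CPM at P3 against 892, 1520 and 466 CPM at 2 months. Crtap and P3h1, which form a complex that hydroxylates proline in collagen, had log2 folds of 3.18 and 2.13, and Loxl1 and Loxl2, which cross-link elastin and collagen, had 3.65 and 3.94. Plod2, which hydroxylates lysine in collagen telopeptides, did not meet the rule and had 165.8 CPM at P3 against 0.130, 877 and 941 CPM at 2 months. Plod1 and Fkbp10 were the other genes that met it.

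Imprinted and fetal growth genes made up the next group. Of 16 listed genes, 9 were higher at P3 and 0 lower, with a median log2 fold of 3.27. Of the 16, 11 were among the genes tested. For all genes tested, the share higher was 39.4% and the median 0.78. Igf2 (chr7:142650766-142666816, minus strand), the growth factor of fetal life, had 2244 CPM at P3 in 24 of 26 cells (92.3%, 74.9% to 99.1%), against 0, 5.65 and 0 CPM at 2 months in 2 of 42 cells (4.76%, 0.582% to 16.2%), a log2 fold of 9.61. H19 (chr7:142575529-142578143, minus strand), the non-coding RNA of the same imprinted locus, had 625 CPM at P3 in 19 cells and 0 reads in 42 cells at 2 months, with 7.14% as the share that 3 cells would make. Both genes of this locus were near or at 0 on all 3 plates at 2 months.

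Mest (chr6:30723547-30748465), an imprinted gene named for its expression in mesoderm, had 5963 CPM at P3 in 22 of 26 cells (84.6%, 65.1% to 95.6%) and 2 reads in 2 of 42 cells at 2 months. Gpc3 (chrX:52272426-52613950), a glypican of the cell surface that restrains growth, had 1372 CPM at P3 in 19 cells and 0 reads at 2 months. The newborn plate lay above all 3 plates at 2 months for both genes, while 4 newborn cells held no Mest and 7 held no Gpc3.

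Other imprinted genes kept reads at 2 months. Peg3 had 1160 CPM at P3 against 0.389, 111.2 and 278.4 CPM at 2 months, and Grb10, an adaptor that limits insulin signalling, had 647 CPM at P3 against 1.68, 76.6 and 70.3 CPM at 2 months. Cdkn1c, the cell cycle inhibitor p57, had 558 CPM at P3 against 0, 7.83 and 14.5 CPM at 2 months. Meg3, a non-coding RNA, did not meet the rule, with 465 CPM at P3 against 973, 655 and 144.8 CPM at 2 months. Dlk1 was read in 11 of 26 cells at P3 and in 1 of 42 at 2 months, but its 9.33 CPM at P3 were under the 10 CPM of the rule. Ndn and Igf2bp2 also met it as higher.

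Genes of growth factor signalling were mixed. Of 28 listed genes, 8 were higher at P3 and 2 lower, and the median log2 fold of 0.93 lay near that of all genes tested. Of the 28, 18 were among the genes tested, and over all genes tested 39.4% were higher and 7.99% lower. Among ligands, Igf1 had 528 CPM at P3 against 0.259, 55.2 and 0.110 CPM at 2 months, and Tgfb3 had 1103 CPM at P3 against 0, 145.5 and 169.98 CPM. Both are secreted factors of growing connective tissue, and both were higher in the newborn cells than on any 2-month plate.

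Among the insulin-like growth factor binding proteins, Igfbp4 had 798 CPM at P3 in 21 of 26 cells, against 0, 273.99 and 0 CPM at 2 months. Igfbp5 and Igfbp7 did not meet the rule. Of the receptors, Igf2r, which clears Igf2, had 139.9 CPM at P3 against 0.130, 1.05 and 1.54 CPM at 2 months, and Pdgfra and Pdgfrb, receptors of fibroblast growth signals, had 121.1 and 191.3 CPM at P3 with log2 folds of 5.62 and 4.81. Fgfr1, a receptor of fibroblast growth factors, was lower, with 299.8 CPM at P3 against 652, 991 and 669 CPM at 2 months. It met the rule in 13 of 17 alternatives. It did not after thinning, with at least 500 genes, or in cells without reads of Bglap and Bglap2 or of Prg4 and Cytl1. The 13 include a call in the other direction. In cells with 0 reads of Cnmd, Acan, Col2a1, Col9a1 and Matn3, Fgfr1 was higher at P3, with a log2 fold of 6.64. Id3, a target of bone morphogenetic protein signals, was also lower, with 298 CPM at P3 against 1242, 458 and 467 CPM at 2 months. It did not meet the rule without plate 1, without that plate's deepest cell or after thinning. Nor did it with the mean of single cells or in cells without reads of Bglap and Bglap2. In cells with 0 reads of Cnmd, Acan, Col2a1, Col9a1 and Matn3, Id3 was higher at P3, with a log2 fold of 4.33. Tgfbi, a matrix protein induced by TGF-beta, had 1614 CPM at P3 against 0, 32.7 and 96.96 CPM.

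Other genes with the highest folds were secreted or contractile proteins. Spon2 (chr5:33198184-33218455, minus strand), a spondin of the extracellular matrix, had 1758 CPM at P3 in 13 of 26 cells and 0 reads at 2 months. C1qtnf3 (chr15:10952332-10980150), a secreted protein related to complement C1q, had 1314 CPM at P3 in 12 cells and 0 reads at 2 months. Egfl6 (chrX:166523007-166585720), a secreted protein with EGF repeats, had 571 CPM at P3 in 11 cells and 1 read at 2 months. These 3 genes were read in 11 to 13 of the 26 newborn cells.

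Tnmd (chrX:133850980-133865577) encodes tenomodulin, a tendon protein related to chondromodulin, the protein of Cnmd. It had 717 CPM at P3 in 7 of 26 cells, with 55.4% of its reads from 1 cell, and 2 reads at 2 months. On the tendon and fibroblast list, 5 of 12 genes were higher at P3 and 0 lower, with a median log2 fold of 2.05. Of the 12, 7 were among the genes tested, and 39.4% of all genes tested were higher. Scx, the transcription factor of tendon, had 79.4 CPM at P3 in 6 cells against 0, 36.3 and 18.8 CPM at 2 months, and Dpt, dermatopontin, had 594 CPM at P3 in 11 cells against 0, 49.5 and 69.2 CPM. Cd34, a surface protein of stromal fibroblasts and vessels, had 605 CPM at P3 in 8 cells and 10 reads at 2 months. Tnmd, Scx, Dpt and Cd34 were each read in 6 to 11 of the 26 newborn cells.

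Acta2 (chr19:34241090-34255590, minus strand), smooth muscle actin, had 844 CPM at P3 in 7 of 26 cells, with 49.5% of its reads from 1 cell, and 0 reads at 2 months. On the smooth muscle and pericyte list, 2 of 10 genes (Acta2 and Tagln) were higher, beside 39.4% of all genes tested, and 0 lower. Of this list, 3 genes were among those tested. Its sum was 1045 CPM at P3 against 0.130, 748 and 425 CPM at 2 months, where it consisted mainly of Cspg4. The defining genes Rgs5 and Des were at 0 reads at both ages, and Myh11 had 30.9 CPM at P3 in 1 cell. The part of these cells in the results was not tested.

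**Figure D3:**
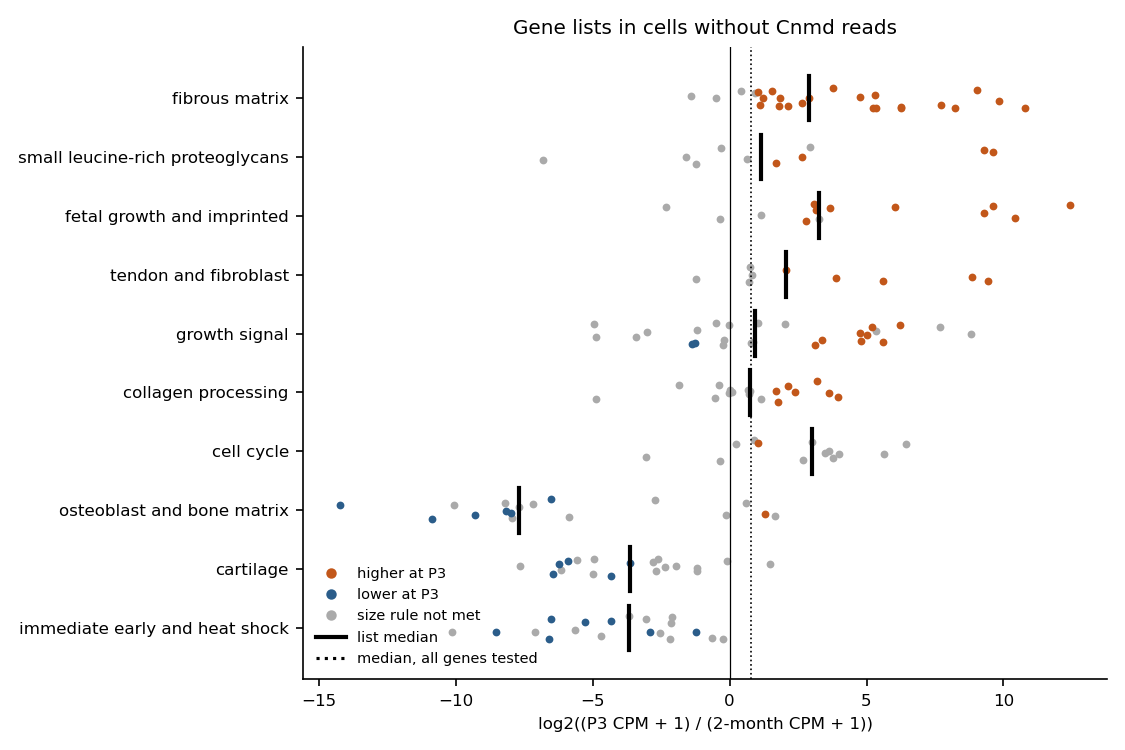
Log2 fold of P3 over 2 months, with 1 CPM added, of each gene with at least 5 CPM at either age in 10 lists; colours show genes that met the size rule as higher or lower at P3, bars mark the list median and the dotted line the median of all genes tested (0.78). The fibrous matrix list has its median at 2.90 and the bone list at -7.69.

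Several bone matrix genes were lower in the newborn cells. Of 20 listed genes, 6 were lower at P3 (Bglap, Bglap2, Ibsp, Spp1, Mmp13 and Tnfrsf11b) and 1 higher (Alpl), with a median log2 fold of -7.69, or -7.97 with genes at 0 reads set to the level of 3 reads. Of the 20 genes, 9 were among the genes tested. Among all genes tested, 7.99% were lower and 39.4% higher. Set against plates 1, 3 and 4 singly, the list median was -7.02, -0.29 and -5.85, so against plate 3 it was near 0. The list summed to 1527 CPM at P3, against 19611, 17153 and 75483 CPM on plates 1, 3 and 4 at 2 months. Without plate 4, 3 of the 6 genes still met the rule.

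Spp1 (chr5:104435118-104441050, plus strand) encodes osteopontin, a phosphoprotein that binds mineral and cells. It had 1 read in 1 of 26 cells at P3 (3.85%, 0.0973% to 19.6%), against 9459, 8051 and 42295 CPM in 20 of 42 cells at 2 months (47.6%, 32.004% to 63.6%). All 9459 CPM of plate 1 came from 1 cell, while 8 cells on plate 3 and 11 on plate 4 held it. Ibsp (chr5:104299171-104311469, plus strand), bone sialoprotein, had 14.5 CPM at P3 in 3 cells, against 2019, 6343 and 21176 CPM at 2 months in 16 cells, a log2 fold of -9.31. Both genes were high on every 2-month plate, but on plate 1 Ibsp was read only in the cell that held Spp1.

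Mmp13 (chr9:7272514-7283331, plus strand) encodes collagenase 3, which cuts fibrillar collagen in hypertrophic cartilage and bone. It had 0 reads in 26 cells at P3, with 11.5% as the share that 3 cells would make, against 0.130, 1272 and 4357 CPM at 2 months in 11 cells. Tnfrsf11b (chr15:54250619-54278484, minus strand), osteoprotegerin, the decoy receptor that blocks osteoclast formation, also had 0 reads at P3, against 0.130, 698 and 164.1 CPM at 2 months in 14 cells. For both genes plate 1 held 1 read, so the gap between the ages rested on plates 3 and 4, and after thinning to 50000 reads neither gene met the rule.

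Promoters of 14 of the 20 bone genes were found in the RefSeq table of GRCm38.p6, with 21 start sites in all, and were searched on both strands for AACCACA, the core of the site bound by Runx2, the osteoblast transcription factor, and for TGACTCA, the AP-1 site bound by Fos and Jun proteins. The first occurs in 5.27% and the second in 5.20% of the 32851 promoters of the table, counted from 250 bases before to 50 bases after a start. Mmp13, Spp1, Dmp1 and Runx2 held AACCACA, and Mmp13 and Phospho1 held TGACTCA. Of the 21 promoters, 4 held AACCACA. Of the bone genes lower at P3, Bglap2 had no promoter in the table and was not searched. Among those searched, only Mmp13 and Spp1 held a match, and their promoters are shown with matches in capitals. These 2 genes had 0 and 1 read at P3 and were high on plates 3 and 4 at 2 months. In Mmp13 (chr9:7272264-7272563, plus strand) AACCACA began at -119 and TGACTCA at -35 from the start, and in Spp1 (chr5:104434861-104435160, plus strand) AACCACA began at -129.
Mmp13 promoter: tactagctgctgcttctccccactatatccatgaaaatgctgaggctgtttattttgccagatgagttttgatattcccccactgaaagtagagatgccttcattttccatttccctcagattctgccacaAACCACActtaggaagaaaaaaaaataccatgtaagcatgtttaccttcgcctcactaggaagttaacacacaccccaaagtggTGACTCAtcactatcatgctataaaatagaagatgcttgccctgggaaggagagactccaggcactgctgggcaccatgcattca
Spp1 promoter: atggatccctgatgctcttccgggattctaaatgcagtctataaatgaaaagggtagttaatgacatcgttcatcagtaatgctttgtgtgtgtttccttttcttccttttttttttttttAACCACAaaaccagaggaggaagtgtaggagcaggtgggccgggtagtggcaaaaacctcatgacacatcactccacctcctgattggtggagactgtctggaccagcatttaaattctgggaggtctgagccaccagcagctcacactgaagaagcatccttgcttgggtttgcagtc
A match describes the letters of the promoter only, and the promoters of Bglap and Ibsp in the table did not hold these letters in this window.

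Bglap (chr3:88383501-88384464, minus strand) encodes osteocalcin, a mineral-binding protein of mature osteoblasts. It had 11.8 CPM at P3 in 2 of 26 cells, against 2764, 24.4 and 739 CPM at 2 months in 10 of 42 cells, a log2 fold of -6.52. A single cell gave 98.8% of its reads at P3 and another gave 75.2% at 2 months. Its near-identical neighbour Bglap2 had 4.07 CPM at P3 against 2369, 5.65 and 1429 CPM at 2 months, and reads shared by these 2 genes cannot be assigned with certainty. Osteocalcin was thus carried by few cells at either age.

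Osteocyte genes were read at 2 months only in a few cells. Dmp1 had 0 reads at P3 against 746, 0.226 and 2438 CPM at 2 months in 6 cells, and Mepe had 0 reads at P3 against 0.130, 0 and 617 CPM in 3 cells. Both fell short of the 20% of cells in the rule. Early osteoblast genes differed from each other. Alpl, the alkaline phosphatase of early osteoblasts, had 1063 CPM at P3 in 7 cells, 67.01% of its reads from 1 of them, against 0, 530 and 756 CPM at 2 months, and it did not meet the rule without plate 1. Sp7, a transcription factor of osteoblast commitment, had 101.1 CPM at P3 against 0, 0 and 198.7 CPM at 2 months, and Runx2 had 21.3 CPM at P3 against 0.259, 76.6 and 364 CPM, a log2 fold of -2.73. Neither met the rule.

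A few cartilage and joint surface genes were also lower at P3. Of 20 listed genes, 15 did not meet the rule, 5 were lower (Col9a3, Comp, Sox9, Cytl1 and Prg4) and 0 higher, with a median log2 fold of -3.65. Of the 20, 13 were among the genes tested. Over all genes tested, 7.99% were lower. Set against plates 1, 3 and 4 singly, the list median was 0.19, -2.41 and -3.83. The list summed to 4087 CPM at P3, against 39508, 84728 and 29165 CPM at 2 months. Since members were chosen by a cartilage gene, these values describe which cartilage genes remained in cells without Cnmd. Without the deepest cell of plate 1, 1 of the genes met the rule, and without all of plate 1, 14 did.

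Prg4, lubricin, had 153.2 CPM at P3 in 2 of 26 cells (7.69%, 0.946% to 25.1%), with 1 cell giving nearly all reads, against 10958, 12786 and 3808 CPM at 2 months in 15 of 42 cells (35.7%, 21.6% to 51.97%). Cytl1, a secreted cytokine-like protein of cartilage, had 280 CPM at P3 in 2 cells, against 21308, 31535 and 9846 CPM at 2 months in 18 cells. On plate 1, all or nearly all reads of Prg4 and Cytl1 came from the deepest cell. Without that cell, Prg4, Cytl1, Comp and Sox9 did not meet the rule. Of the 15 cells with Prg4 at 2 months, 14 held Cytl1, 14 held Clu, 14 held Col2a1 and all 15 held Comp. The genes of the joint surface were therefore read together in the same 2-month cells.

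Comp, cartilage oligomeric matrix protein, had 270 CPM at P3 in 4 cells, against 1077, 11509 and 3816 CPM at 2 months in 23 cells. Chad, chondroadherin, a matrix protein that binds integrins, had 21.9 CPM at P3 against 0.389, 12119 and 1846 CPM at 2 months, and did not meet the rule because of plate 1. Sox9, the transcription factor of cartilage, had 98.2 CPM at P3 in 7 cells against 2866, 527 and 351 CPM at 2 months in 24 cells. Col11a1, a minor fibrillar collagen, was level, with 1567 CPM at P3 against 2104, 1190 and 1671 CPM at 2 months. Growth plate genes were nearly silent: Col10a1 had 0 reads at P3 and was read in 1 cell at 2 months, and Matn1 had 0 reads at both ages.

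A group of immediate early genes, which respond within minutes to growth signals, stress and tissue digestion, was lower at P3. Of 20 listed immediate early and heat shock genes, 7, all immediate early, were lower (Fos, Junb, Jund, Egr1, Ier2, Nr4a1 and Dusp1) and 0 higher, and all 19 genes with at least 5 CPM had log2 folds under 0, with a median of -3.68. Of the 20, 15 were among the genes tested, and the share lower over all genes tested was 7.99%. Set against plates 1, 3 and 4 singly, the list median was -0.74, -4.14 and -3.69. The list summed to 2482 CPM at P3, against 26655, 26757 and 14628 CPM on plates 1, 3 and 4 at 2 months. Without the deepest cell of plate 1, 2 of the genes met the rule, and without all of plate 1, 14 did. The part of tissue digestion or of batch was not tested.

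Fos, a subunit of AP-1, had 20.1 CPM at P3 in 1 of 26 cells (3.85%, 0.0973% to 19.6%), against 1800, 2274 and 2005 CPM at 2 months in 20 of 42 cells. Junb, its partner, had 30.7 CPM at P3 in 2 cells against 3061, 3882 and 1716 CPM at 2 months in 21 cells. Dusp1, a phosphatase that switches off stress kinases, had 229.2 CPM at P3 in 7 cells against 16782, 6406 and 3438 CPM at 2 months in 26 cells. Nr4a1 (chr15:101254269-101274795), an orphan nuclear receptor, had 0 reads at P3, with 11.5% as the share that 3 cells would make, against 294, 767 and 45.7 CPM at 2 months in 16 cells. On plate 1, all or nearly all reads of Fos, Junb, Dusp1 and Nr4a1 came from the deepest cell, and without it none of them met the rule. Jun itself did not meet the rule, with 176.4 CPM at P3 against 36.2, 2050 and 2357 CPM. Of the heat shock genes, Hspa1a had 0 reads at P3 against 0, 1882 and 1497 CPM at 2 months, and Hspa8, the constitutive member, had 1330 CPM at P3 against 994, 2865 and 807 CPM.

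The remaining genes with the lowest folds had varied roles. Clu (chr14:65968483-65981547), clusterin, a secreted chaperone, had 2.16 CPM at P3 in 2 cells against 8568, 15511 and 4059 CPM at 2 months in 22 cells, a log2 fold of -11.53. Errfi1 (chr4:150853919-150868892), an inhibitor of the EGF receptor, had 3 reads at P3 against 2208, 3648 and 836 CPM at 2 months. Htra4 (chr8:25024929-25038962, minus strand), a secreted serine protease, had 0 reads at P3 against 431, 1965 and 331 CPM at 2 months. On plate 1, the reads of these 3 genes came from the deepest cell alone, and without it none of them met the rule.

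Ank (chr15:27466677-27594909), which exports pyrophosphate, an inhibitor of mineral, had 2 reads at P3 against 21.3, 1338 and 657 CPM at 2 months in 17 cells. Pid1 (chr1:84036296-84364180, minus strand), an adaptor protein, had 1.08 CPM at P3 against 1326, 928 and 428 CPM at 2 months, a log2 fold of -8.75. Fry (chr5:150118645-150497753) and Kif13b (chr14:64647265-64809617), a kinesin, had 0 reads at P3, and had 906, 295 and 42.5 CPM and 225.5, 253.3 and 109.4 CPM on the 2-month plates. All 4 genes were above P3 on each 2-month plate. On plate 1, nearly all reads of Pid1, Fry and Kif13b came from the deepest cell, so their levels there are those of 1 cell. Without that cell, Pid1 did not meet the rule, while Fry and Kif13b still met it with P3 at 0 reads.

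Few newborn members held cell cycle transcripts. Of 20 listed genes, 13 had at least 5 CPM, with a median log2 fold of 3.00, and 11 of these lay above 0. Only 1 of the 20, Pcna, the clamp of DNA replication, reached the level and share of cells that the rule asks for. Pcna met the rule, with 103.8 CPM at P3 against 0, 60.9 and 90.1 CPM at 2 months. Pcna met it in 8 of 16 alternatives, and not without plate 1, after thinning, with all cells of an age summed or with the mean of single cells. Mki67, a marker of dividing cells, had 45.6 CPM at P3 in 2 cells against 0.130, 5.42 and 0.221 CPM at 2 months. At least 4 of the genes were read in 4 of 26 cells at P3 (15.4%, 4.36% to 34.9%) and in 1 of 42 at 2 months (2.38%, 0.0603% to 12.6%), with every cell thinned to 50000 reads. Ribosomal protein genes had a median log2 fold of 0.67, near that of all genes tested, with 23 of 82 higher and 0 lower. Of the 82, 73 were among the genes tested. Among all genes tested, 39.4% were higher.

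Marrow stroma genes gave 3 of 12 higher at P3 (Cxcl12, Ebf1 and Pdgfrb) and 0 lower, with a median log2 fold of 0.10. Of the 12, 4 were among the genes tested, and the share higher over all genes tested was 39.4%. Cxcl12, the chemokine that holds blood stem cells in marrow, had 471 CPM at P3 against 0.389, 424 and 97.95 CPM at 2 months, and its log2 fold turned to -1.18 when cells with at least 500 genes were used. Lepr, which marks adult marrow stroma, had 0 reads at P3 against 0.130, 58.8 and 0.221 CPM at 2 months. Ctsk, a protease of osteoclasts that fibroblasts of periosteum also express, had 304 CPM at P3 in 11 cells and 1 read at 2 months, while the osteoclast genes Acp5, Mmp9 and Calcr had 0 reads at P3.

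Markers of other cell types the sort could have let through gave these sums. The 12 blood genes summed to 0 CPM at P3 and to 0.518, 7.15 and 0 CPM at 2 months, and the 8 endothelial genes to 42.4 CPM at P3, nearly all Flt1 in 2 cells, and to under 1 CPM on each 2-month plate. The 8 skeletal muscle genes summed to 0 CPM at P3 and to 0, 0 and 17.6 CPM at 2 months, and the red cell genes to 2.99 CPM at P3 and 681, 3.46 and 0.441 CPM. None of these lists had a gene that met the rule. Among surface proteins used to sort skeletal stem cells, Cd200 was lower at P3 (56.2 CPM, against 859, 271.9 and 387 CPM at 2 months), Itgav was read in 12 of 26 cells at P3 and in 8 of 42 at 2 months, and Thy1 and Tek, markers of excluded cells, had 0 reads at both ages.

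The cells with Cnmd reads on the same plates made up 61.8% of passing cells at P3 and 72.7% at 2 months, and their values are set beside those of the members without a test. Igf2, Mest and H19 had 1759, 3094 and 1608 CPM at P3 in cells with Cnmd reads, against means of 4.04, 66.8 and 73.6 CPM at 2 months, so that the fetal growth genes were higher in both kinds of newborn cell. Postn had 238.3 CPM at P3 in cells with Cnmd reads against a mean of 0.0573 CPM at 2 months. Aspn and Mfap4, in contrast, had 0 CPM in newborn cells with Cnmd reads. Col12a1 had 1016 CPM at P3 and a mean of 1127 CPM at 2 months, a log2 fold of -0.15. Whether the folds differ between cells with and without Cnmd was not tested.

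**Figure D4:**
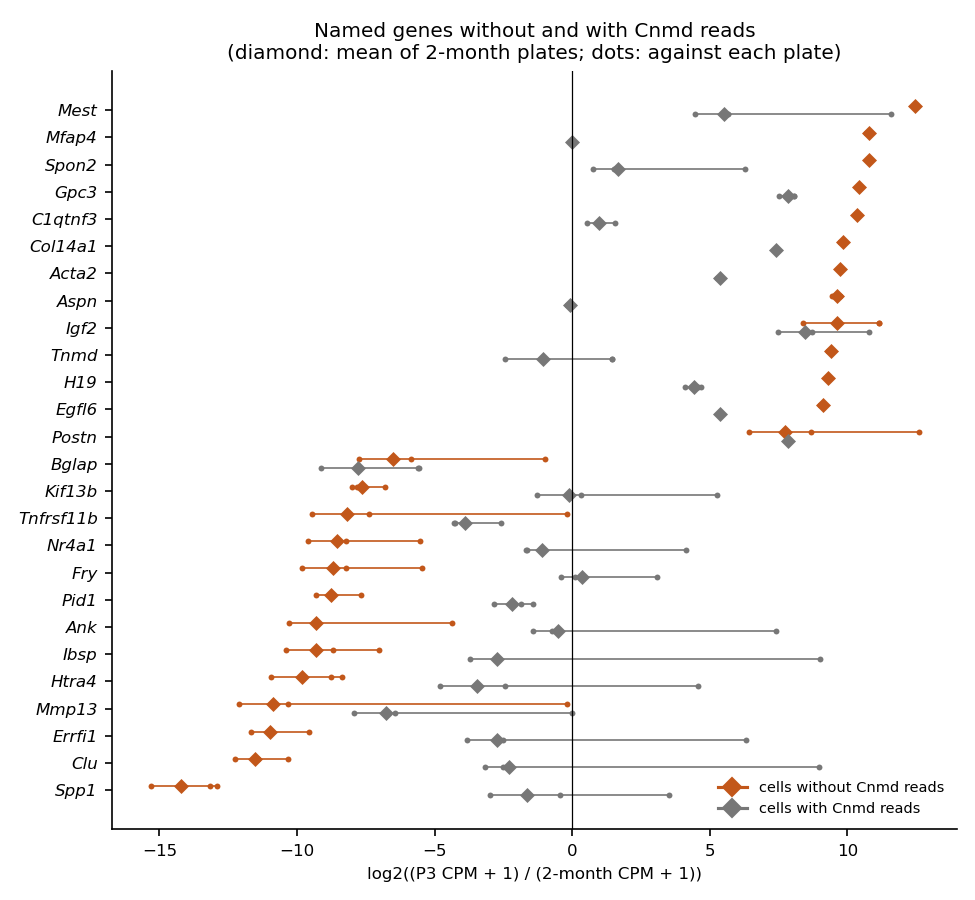
Log2 fold of P3 over 2 months, with 1 CPM added, of the 26 genes named by fold or as markers, in cells without Cnmd reads (orange) and with them (grey); diamonds use the mean of the 2-month plates and dots each plate. Folds of genes at or near 0 reads at 1 age depend on the added 1 CPM. Igf2 and Postn lie far to the right in both, whereas Mfap4 and Aspn lie at 0 in cells with Cnmd reads.

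At 24 months, 15 cells passed, 5 on each of plates 2, 5 and 12, and none held a Cnmd read. Plates 2 and 12 carry batch 3, as the newborn plate does. On these 2 plates Postn, Col14a1, Mest, Mfap4, Spon2, Gpc3, C1qtnf3, Acta2, Tnmd, H19 and Egfl6 were all at 0 CPM, Igf2 was at 10.01 and 0 CPM, and Aspn at 0 and 22.9 CPM. On plate 5 (batch 2) Postn was at 379 CPM, above every 2-month plate. Spp1 was at 11184 CPM on plate 2 and 2258 CPM on plate 12. Other genes that were higher at P3 were high on at least 1 of these plates: Bgn had 5772 and 1886 CPM, Igfbp4 had 3135 and 1.77 CPM, and Cxcl12 had 19961 and 0 CPM on plates 2 and 12. Each of these plates gives 5 cells, and no 2-month plate of batch 3 was analysed here.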

How the data were processed

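The deposited table holds expected counts per gene and cell that the authors made with RSEM 1.2.21 after alignment with STAR 2.4 to GRCm38.p6 and demultiplexing with bcl2fastq 2.18, per the submitters' processing notes; the roles of these tools follow from their names, and the annotation release is not given in the sources used here. Not whole were 14.8% of values, and all and were rounded to whole counts. The table has 55604 gene rows and 92 spike-in rows, which were left out of all totals. Of its columns, 1 matched no sample and was not used, and 382 column names differed from the sample titles and were joined by plate, well, age and index sequences.

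Reads of the members of a plate were summed and scaled to CPM. An age's level is the mean of its plates with at least 5 members, and folds are log2 ratios with 1 CPM added. Ages were taken from the labels, and with 1 sample per age no test was made. The size rule is given with the results. Genes are named when they mark the members (Postn, Col14a1, Bglap), have 1 of the 12 highest or 12 lowest folds among genes that met the rule with at least 20 CPM and reads in 25% of cells of the higher age and at least 1.5-fold between the nearest plates (clone and model names left out), or are on a gene list. The members and lists were chosen with earlier results of these data known. Medians of lists leave out genes under 5 CPM at both ages. In the results no fold is given where an age had 0 to 3 reads; Ctsk and Col9a3, given further on, are exceptions, and figures plot all folds. Of the lists, 1 is not reported here. Shares carry exact Clopper-Pearson 95% intervals, and beside 0 cells stands the share of 3 cells, the floor used. Coordinates come from GENCODE annotation of GRCm38, which held 54157 of the symbols. The comparison was checked on simulated data with large changes in well-read genes only, and calls among unchanged genes were not counted there. Tables were made with pandas 2.3.3 and numpy 2.4.6 in Python 3.11.15, intervals with scipy 1.17.1 and figures with matplotlib 3.10.9; edgeR 4.0.16 in R 4.3.3 gave TMM factors as an alternative scaling.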

Additional observations from a re-analysis of the deposited data

Results flagged for a closer look

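Among the named genes and the listed genes that met the size rule, 5 lay on one side of every 2-month plate in cells without Cnmd reads and on the other side of every plate in cells with them. These differences were not tested. Alpl had a log2 fold of 1.31 without Cnmd reads (1063 CPM at P3, mean of 428 CPM at 2 months) and -2.35 with them (87.7 CPM at P3, 450 CPM at 2 months). Col6a3 had 2.65 without (1637 CPM at P3, 259.3 CPM at 2 months) and -1.33 with Cnmd reads (346 CPM at P3, 871 CPM at 2 months). Igf1 had 4.76 without (528 CPM at P3, 18.5 CPM at 2 months) and -2.43 with them (8.05 CPM at P3, 47.6 CPM at 2 months). Ctsk had 8.22 without (304 CPM at P3, 1 read at 2 months) and -1.08 with them (57.3 CPM at P3, 122.02 CPM at 2 months). Col9a3, a chain of cartilage type IX collagen, had -6.45 without (1 read at P3, 89.9 CPM at 2 months) and 0.52 with Cnmd reads (7324 CPM at P3, 5103 CPM at 2 months). The folds of Ctsk and Col9a3 in cells without Cnmd reads depend on the added 1 CPM.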

How the results depend on the processing

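Of 19 alternatives, 17 gave values. Cells with 0 reads of Postn left 3 at P3, and a limit of 2000 genes and 200000 reads left 5 at 2 months, on plates of fewer than 5. No paired analysis was possible because no label pairs plates of the 2 ages and each age is 1 sample.

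Leaving out a 2-month plate gave 1216 to 1690 genes higher and 10.4% to 17.2% of genes tested lower, and medians of 2.45 to 4.87 for the fibrous list, 1.33 to 1.76 for the proteoglycans, -7.78 to -4.90 for bone, 3.12 to 4.70 for fetal growth, 3.18 to 3.61 for the cell cycle, -3.80 to -3.25 for immediate early and -3.36 to -3.18 for cartilage. A limit of 1 CPM with none on cells gave 4537 higher and 5.13% lower. The share lower was 17.5% with all cells of an age summed, 15.8% with the mean of single cells, 5.29% after thinning and, both chosen after seeing the data, 5.11% without the deepest cell of plate 1 and 5.05% in cells with 0 reads of Prg4 and Cytl1. The cell cycle median was 1.04 with 10 CPM added and 3.53 after thinning. The proteoglycan median was 0.20 with cells under 10 CPM of Cnmd. In cells with 0 reads of Bglap and Bglap2 it was 2.44 and the cell cycle median 2.38. In cells with 0 reads of Prg4 and Cytl1 they were 2.83 and 3.90, and Cxcl12 (-1.24), Fbln1 (-0.94), Fbln5 (-1.13), Igfbp4 (-0.0502), Lox (-0.0289) and Tnc (-0.0871) turned negative. With at least 500 genes Cxcl12 (-1.18) and Tnc (-0.67) did so.

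Cells with 0 reads of Cnmd, Acan, Col2a1, Col9a1 and Matn3 (14 at P3 and 14 at 2 months, with 1 plate usable) gave 2145 higher and 19.9% lower, with medians of 6.61 for proteoglycans, 8.95 for fetal growth, 4.62 for the cell cycle and 2.45, with the sign turned, for cartilage, whose genes chose these cells. There the log2 folds of Alpl (-8.24), Col1a1 (-0.27), Lox (-2.96), Scx (-3.45) and Tnc (-3.08) turned negative and those of Comp (6.70), Egr1 (3.01), Fgfr1 (6.64), Id3 (4.33) and Sox9 (6.61) positive. The cause of these moves was not tested. The other medians of these 7 lists kept their sign and moved by less than their spread over plates; other lists were not recomputed. TMM factors moved the median of all genes by -0.07. Of 1534 values of single genes, 1259 moved by less than that spread and 18 changed sign. With 26 and 42 cells, a gene read in no cell has floors of 11.5% and 7.14% of cells, the share of 3 cells.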
